A study of Mus musculus with 41 samples.

Results

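The genes described here are 10 inflammatory mediators of mouse endometriosis lesions. They are the interleukin-1 ligands Il1a and Il1b with their antagonist Il1rn, tumour necrosis factor (Tnf), 4 cytokines that signal through the receptor chain gp130 (Il6, Osm, Lif and Il11), and the inducible enzymes Ptgs2 and Nos2. They were taken by name, and all 10 were found among the 21249 genes of the count table. Interleukin-1 and tumour necrosis factor switch on inflammatory genes through NF-kB, and Il1rn blocks the interleukin-1 receptor without activating it. The gp130 cytokines act through STAT3, and Lif made by uterine glands is needed for embryo implantation. Ptgs2 (cyclooxygenase 2) makes the precursor of prostaglandins, which are known for their part in endometriosis pain, and Nos2 makes nitric oxide in activated macrophages.

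Endometriosis, the growth of uterine lining outside the uterus, was modelled by gluing a 4 mm punch of donor uterus inside the peritoneal cavity of mice aged 12 to 16 weeks. Bulk RNA sequencing of 41 lesions in 11 groups followed 3 injections of 1 µg interleukin-33 (IL-33), an activator of group 2 innate lymphoid cells (ILC2s), or of PBS, begun on day 7. The genotypes that the series calls ILC2-competent were C57Bl/6J (wild type), Id2fl/fl (floxed controls) and Nmur1iCre-eGFP (Cre controls), each given IL-33 (n = 4 each). The ILC2-deficient genotype was Nmur1iCre-eGFP Id2fl/fl, in which the Cre removes Id2 only in cells that use the Nmur1 promoter. Deficient lesions were taken after IL-33, after PBS alone, after IL-33 with PBS labelled in addition (added PBS), and after IL-33 preceded by 250000 transferred ILC2s (n = 4 each). A smaller dose of 120000 ILC2s preceded IL-33 in 2 further groups, of deficient (n = 2) and of wild-type lesions (n = 3). In the 2 lesion-transfer groups, both given IL-33, Cre-control fragments grew in deficient recipients and deficient fragments grew in Cre-control recipients (n = 4 each). Elsewhere the recipient was taken to have the genotype given for the lesion, which makes 5 groups with competent recipients (19 lesions) and 6 with deficient recipients (22 lesions).

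Each library held between 28884926 and 70526624 counts, and all levels below are in CPM, which corrects counts for these totals. Summed CPM of 8 uterine stroma and steroid receptor genes lay between 8698 and 26879 in all 41 lesions. Liver genes took 2.92% to 10.7% of the counts in 4 libraries and at most 0.127% in the other 37. The 4 were replicate 4 of wild type, 3 of Cre controls, 2 of IL-33-treated deficient lesions and 3 of wild type with 120000 ILC2s. Summed CPM of 10 skeletal muscle genes varied more widely, from 39.1 to 65884 (median 20512). It was 27955 to 48039 in floxed and 64.0 to 26062 in Cre controls. With added PBS it was 24624 to 52699, and after 250000 ILC2s 74.0 to 52100. Its Pearson r with the 10 members ran from −0.38 (Il1a and Lif) to 0.13 (Il6), and its part in their differences was not tested. By library name, IL-33-treated deficient lesions are mixed in sequence with Cre controls, and added-PBS lesions with those given 250000 ILC2s. The other groups have separate runs of names, and between such groups a difference in handling and a difference in condition cannot be told apart. In bulk tissue, fewer cells that make a transcript and less transcript per cell cannot be told apart either.

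The promoters of the 3 genes that were higher in deficient lesions below (Il1b, Ptgs2 and Lif) and of Il6, which was not, are shown to set their letters side by side. The RefSeq table (GRCm38.p6) held 8 of the 10 genes, without Osm and Nos2. Each line gives the 250 bases before the start of the gene, 5′ to 3′ on the gene's strand, with matches to the motifs below in capitals.
Il1b, chr2:129371140-129371389, minus strand: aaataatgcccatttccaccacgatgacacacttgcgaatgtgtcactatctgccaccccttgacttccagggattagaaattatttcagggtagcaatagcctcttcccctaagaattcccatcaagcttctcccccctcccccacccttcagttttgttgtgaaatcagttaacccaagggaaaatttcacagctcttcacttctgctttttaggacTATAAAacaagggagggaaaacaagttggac
Ptgs2, chr1:150099781-150100030, plus strand: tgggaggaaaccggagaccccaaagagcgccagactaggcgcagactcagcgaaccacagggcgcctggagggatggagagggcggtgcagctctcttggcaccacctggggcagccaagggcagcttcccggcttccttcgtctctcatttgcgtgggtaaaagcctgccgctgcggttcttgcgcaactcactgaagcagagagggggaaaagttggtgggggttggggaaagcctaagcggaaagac
Lif, chr11:4257318-4257567, plus strand: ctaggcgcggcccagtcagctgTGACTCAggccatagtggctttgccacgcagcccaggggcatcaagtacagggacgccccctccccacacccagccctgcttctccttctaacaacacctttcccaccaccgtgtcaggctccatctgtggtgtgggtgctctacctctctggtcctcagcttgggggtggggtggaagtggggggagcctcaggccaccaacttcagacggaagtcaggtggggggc
Il6, chr5:30012864-30013113, plus strand: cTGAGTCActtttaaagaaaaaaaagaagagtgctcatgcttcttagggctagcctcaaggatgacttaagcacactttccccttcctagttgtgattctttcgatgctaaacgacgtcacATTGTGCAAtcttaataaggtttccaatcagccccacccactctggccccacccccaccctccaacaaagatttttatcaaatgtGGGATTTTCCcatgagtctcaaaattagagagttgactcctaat
Both strands of the window from 250 bases before to 50 after the start were searched for NF-kB, AP-1 (TGANTCA), C/EBP (TTGCNNAAT), STAT (TTCNNNGAA), CRE (TGACGTCA), an interferon-type element (ISRE-like) and the TATA box (TATAAA). The capitals are a TATA box in Il1b, AP-1 in Lif, and AP-1, C/EBP and NF-kB, in that order, in Il6. The Ptgs2 window held none of these letters. Of 32851 windows of the same length, 1.63% held the NF-kB letters, 7.81% AP-1, 2.40% C/EBP and 13.6% the TATA box. Over the members' windows the NF-kB letters stood in 2 genes (Il6 and Il1rn), AP-1 in 5, and the TATA box letters in 4 (Il1a, Il1b, Tnf and an alternative window of Il1rn). In Il1a, Il1b and Tnf the TATA letters began 29 to 32 bases before the start. In Il1rn they lay on the opposite strand, 15 to 20 bases after it. A match here is a description of letters and not evidence of binding.

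All 10 transcripts were detected in every lesion, with at least 7 counts. Compared per kilobase of exon and averaged over the 41 lesions, Il1rn (12.7 CPM per kb) and Il1b (12.4) were the most abundant, then Tnf (6.11), Il1a (3.16), Ptgs2 (2.85), Nos2 (2.11), Osm (1.54), Lif (1.18), Il6 (0.574) and Il11 (0.254). Across the 11 groups, 5 of the 10 genes differed by edgeR's quasi-likelihood test at an adjusted p under 0.05, against 21.3% of all genes tested. They were Lif (adjusted p = 0.00371), Nos2 (0.00427), Il1b (0.00461), Ptgs2 (0.00527) and Osm (0.0179). Without the 2 libraries highest in T cell genes, described under Nos2 below, Nos2 did not pass (0.0881). The other 5 did not pass, from Il6 (0.0806) to Il1rn (0.794). The order of group means was loose for every gene. With groups ranked by mean, neighbouring groups overlapped in all 10 pairs for 7 genes and in 9 of 10 pairs for Il1b, Il6 and Ptgs2.

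**Figure D1:**
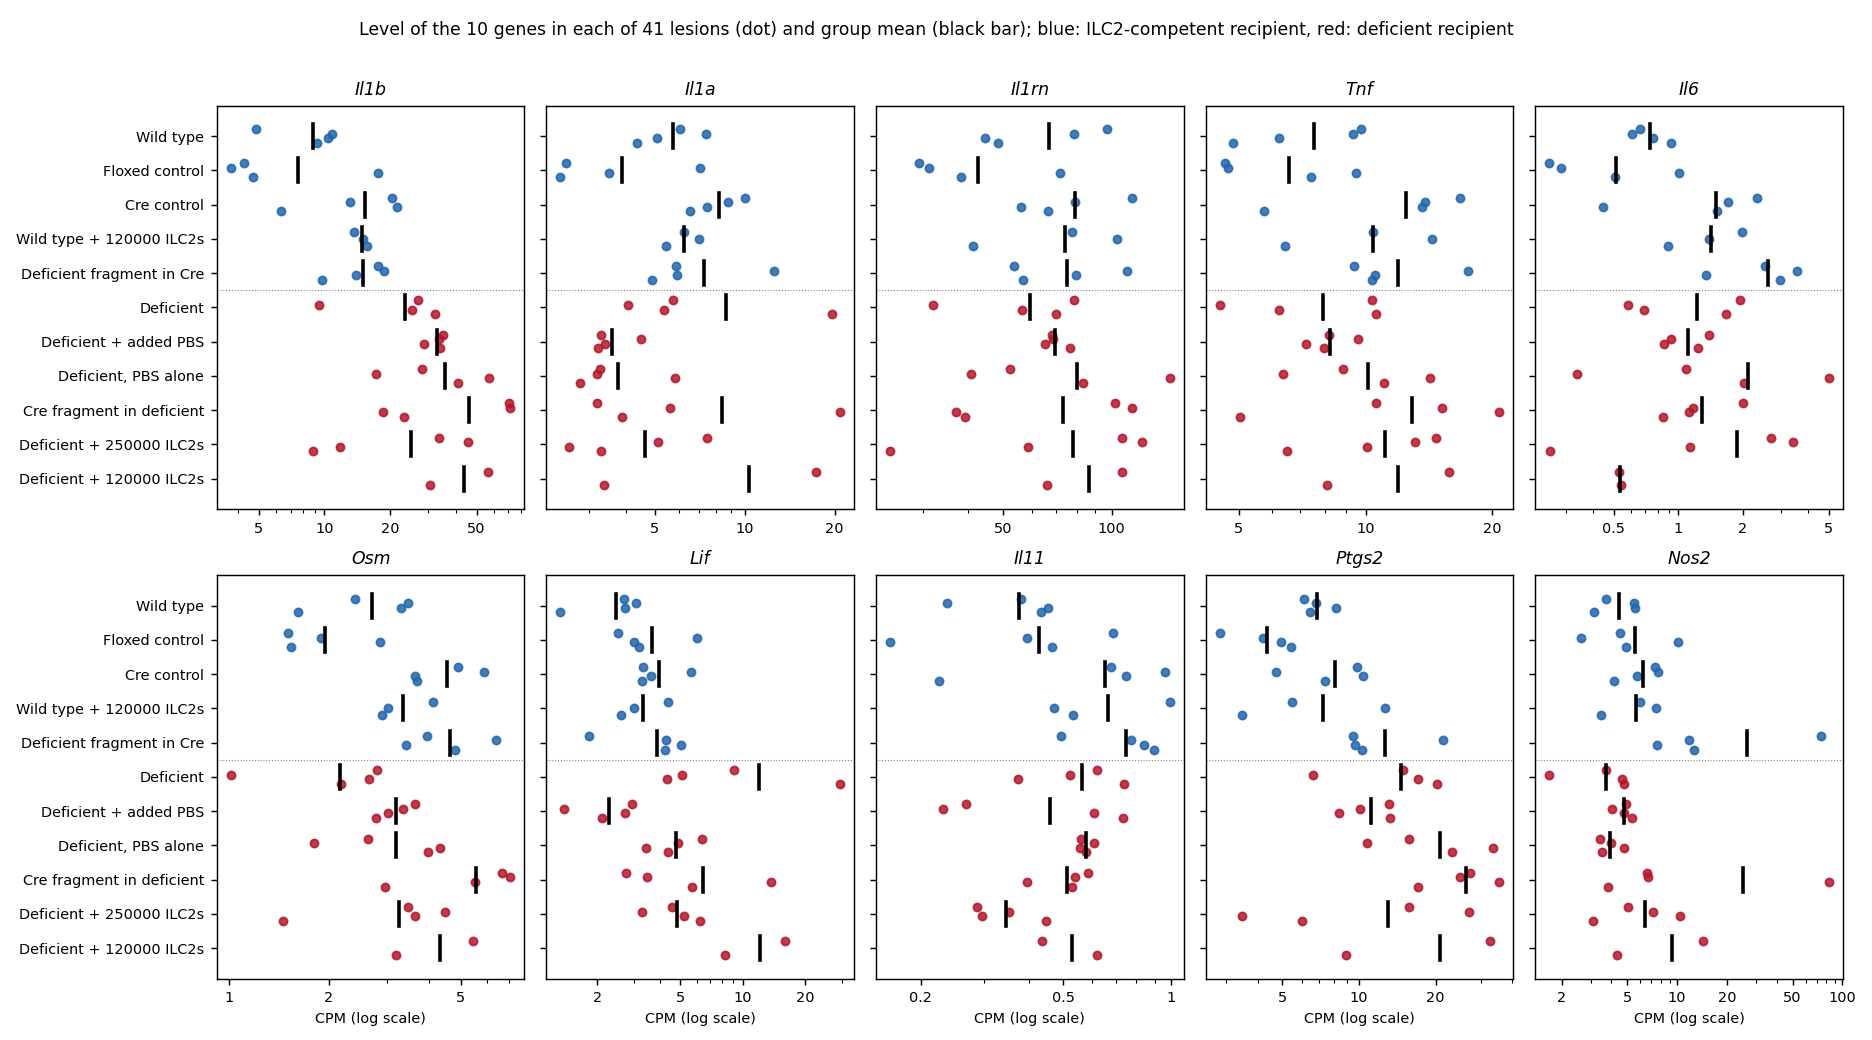
Level of each of the 10 genes (CPM, log scale) in 41 lesions, by group. Each dot is 1 lesion, the black bar is the group mean, blue marks competent and red deficient recipients. For Il1b, 17 of the 22 lesions from deficient recipients lie above the highest lesion from a competent recipient (21.4 CPM), while Il1rn overlaps throughout.

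Counts of members past the test, by comparison, set the frame for the genes below. In IL-33-treated deficient lesions against the 3 competent genotypes (n = 4 against 12), 3 of 10 were higher (Il1b, Lif and Ptgs2) and none was lower, where 11% of all genes passed and 6.24% were higher. The members' median log2 difference was 0.41, against −0.01 over all genes. In deficient against Cre-control recipients, averaged over both fragment genotypes (n = 8 against 8), 2 of 10 were higher (Il1b and Lif), where 11.3% of all genes passed and 5.02% were higher. The members' median log2 difference there had the opposite sign, −0.25, against 0.01 over all genes. For the interaction of recipient and fragment genotype 1 of 10 passed (Nos2), against 0.414% of all genes. By edgeR no member passed in the other 9 comparisons, and most of those called few genes of any kind. The share of all genes that passed was 0.00471% for fragment genotype, 0.00941% for IL-33 against PBS in deficient lesions, and 0% for 250000 ILC2s against added PBS, for 120000 ILC2s in deficient and in wild-type lesions and for the difference between these last 2. It was 0.0141% for added PBS against IL-33 alone, 0.329% for Cre against floxed controls and 2.65% for wild type against the other controls.

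At an unadjusted p under 0.05, the members past the test are read beside the share of all genes at the same cut-off. There was 1 for fragment genotype (Osm, against 3.92% of all genes), 2 for IL-33 against PBS (Lif and Il1a, 6.76%), 1 for 250000 ILC2s (Lif, 8.70%) and 1 for 120000 ILC2s in deficient lesions (Osm, 1.88%). There was 0 for 120000 ILC2s in wild type (3.96%) and 1 for the difference between the groups given 120000 (Il6, 3.23%). Added PBS against IL-33 alone had 2 (Lif and Il1a, 16.4%), Cre against floxed controls had 4 (Osm, Il6, Tnf and Il1a, 14.5%) and wild type against the other controls had 0 (19.8%). DESeq2 called Osm in Cre against floxed controls (1.07% of all genes) and Lif in added PBS against IL-33 alone (3.61%), and no other member in those 9.

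**Figure D2:**
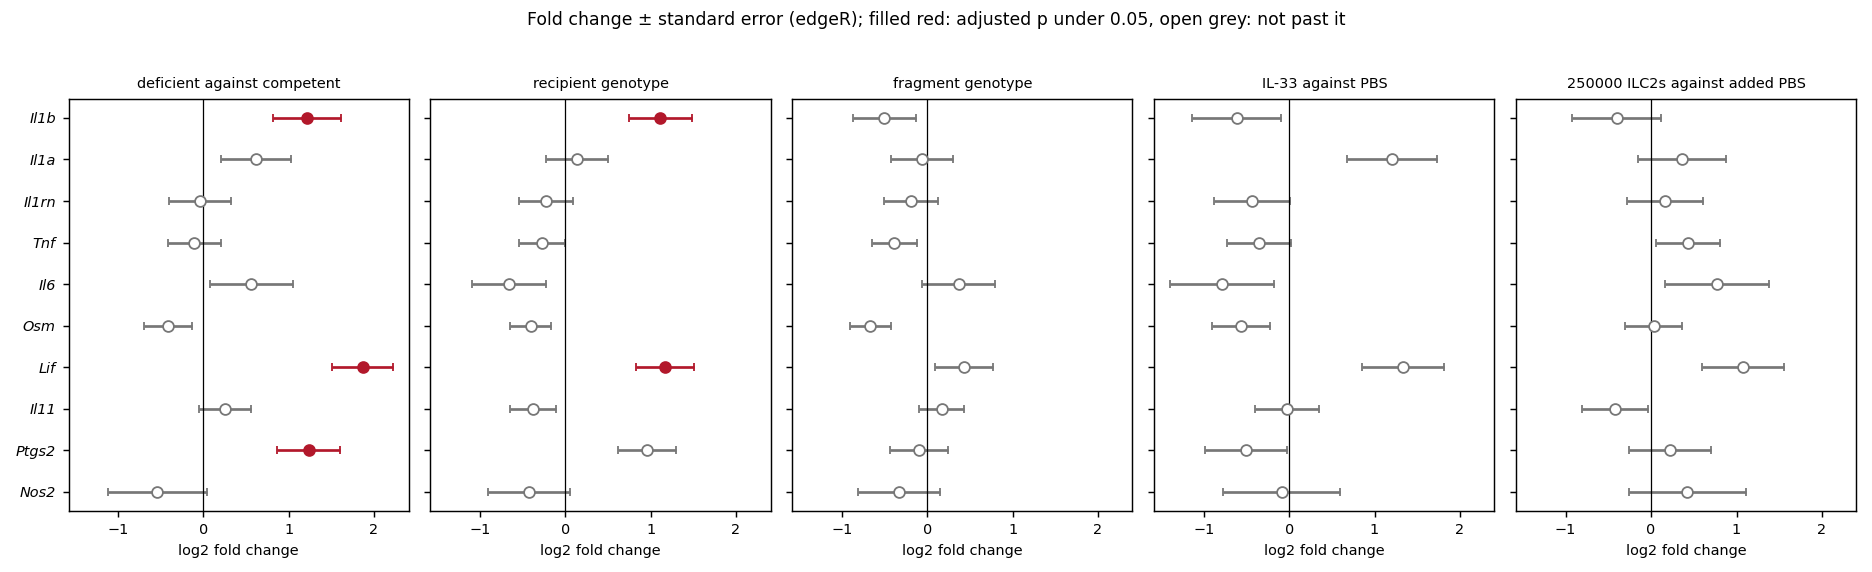
Log2 fold change ± standard error of the 10 genes in 5 comparisons (edgeR, 11-group model). Red filled points passed an adjusted p of 0.05. Il1b, Lif and Ptgs2 passed for deficient against competent lesions, Il1b and Lif for recipient genotype, and no member for fragment genotype, IL-33 against PBS or 250000 ILC2s.

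Il1b encodes interleukin-1β, a fever-inducing cytokine made mainly by monocytes and macrophages (GRCm38, GENCODE M21, protein-coding, chromosome 2, 129364570 to 129371139, minus strand). The 4 wild-type lesions given IL-33 held 4.83, 10.8, 10.4 and 9.28 CPM. Floxed controls had 4.26, 3.71, 17.6 and 4.69 CPM, and Cre controls 20.5, 13.0, 21.4 and 6.33. The 4 deficient lesions held 26.8, 9.41, 25.1 and 32.3 CPM. Of these 3 lay above all 12 competent lesions, and the groups overlapped through replicate 2. Il1b was 2.32-fold higher in deficient lesions (log2 1.22 ± 0.40 SE, edgeR adjusted p = 0.0456).

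The call was close to the threshold. Of 16 refits that left out 1 library, 6 passed, those without Cre-control replicate 1 or 3, deficient replicate 2, floxed replicate 3 or wild-type replicate 2 or 3. Their log2 differences over all 16 were 1.04 to 1.50. A fit of the compared groups alone did not pass either (1.23, adjusted p = 0.0694). With only Cre controls as comparator, which are mixed with the deficient lesions by library name, 3.83% of all genes passed and the Il1b difference was 0.61 ± 0.52 (adjusted p = 0.569). Among controls, Cre lesions were 1.02 ± 0.53 above floxed lesions (adjusted p = 0.370). Summed CPM of 10 macrophage and monocyte genes was 2085 to 3780 in the deficient lesions and 1402 to 3360 in the 12 competent ones. Of the 10 genes 1 was higher, where 6.24% of all genes were, and their part in the Il1b difference was not tested.

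Some fat markers also differed in both comparisons. Of 6 adipocyte genes, 3 were higher in deficient against competent lesions, the adipokines Lep (5.65 ± 1.04, adjusted p = 0.000800), Retn (3.25 ± 0.74, 0.00442) and Adipoq (2.97 ± 0.86, 0.0226), with a list median of 2.71. The same 3 were higher by recipient, with a list median of 2.61. Over all genes, 6.24% were higher in deficient against competent lesions and 5.02% by recipient. The summed CPM of the 6 overlapped, at 18.5 to 578 in the deficient lesions, 24.8 to 181 in the 12 competent ones, and 20.9 to 170 in the 8 from Cre recipients. Over 41 lesions this sum correlated with Il1b at Pearson r = 0.05, with Ptgs2 at −0.07 and with Lif at −0.19, and the part of fat in the differences was not tested.

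Lesion transfer varied recipient and fragment genotype separately. The 2 transferred groups have separate runs of library names, so handling and genotype cannot be told apart between them, for Il1b or the genes below. Between the 2 untransferred groups, mixed by name, the Il1b difference was 0.61 ± 0.52 (edgeR adjusted p = 0.569). Cre fragments in deficient recipients had 70.6, 71.5, 18.6 and 23.1 CPM, among them the highest values of the series. Deficient fragments in Cre recipients had 17.6, 18.7, 14.0 and 9.75 CPM, all within the range of Cre controls. The recipient's genotype gave a difference of 1.11 ± 0.37 (adjusted p = 0.0477), with 6 of 8 lesions from deficient recipients above all 8 from Cre recipients. The fragment's genotype gave −0.50 ± 0.37 (adjusted p = 1.00). The recipient difference was 0.97 to 1.26 with each library left out in turn. It passed in 4 of 16 such refits, those without Cre-control replicate 3, deficient replicate 2 or replicate 3 or 4 of the Cre fragments in deficient recipients. It did not pass in a fit of the 4 groups alone (adjusted p = 0.0626) or with library totals alone (0.065).

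Of the further groups, deficient lesions given PBS alone had Il1b at 28.1, 17.2, 57.1 and 41.1 CPM, and those with added PBS 35.2, 33.7, 28.6 and 34.0. After 250000 ILC2s it was 33.4, 45.4, 11.8 and 8.89 CPM, and after 120000 ILC2s 56.6 and 30.6. Wild-type lesions given 120000 ILC2s had 13.7, 15.0 and 15.8 CPM. Over all groups the median was 31.4 CPM (8.89 to 71.5) in 22 lesions from deficient recipients and 13.0 CPM (3.71 to 21.4) in 19 from competent ones. The 5 lesions from deficient recipients inside the competent range were IL-33-treated replicate 2, PBS replicate 2, transferred-fragment replicate 3 and replicates 3 and 4 given 250000 ILC2s. In a comparison added after the values were seen, the mean of the 6 deficient-recipient groups against the 5 others gave 1.50 ± 0.24 (edgeR adjusted p = 2.48e-05), where 30.9% of all genes passed. That contrast mixes treatments and separate runs of library names.

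IL-33 itself was not associated with a called difference in Il1b. Deficient lesions given IL-33 were at −0.62 ± 0.52 against those given PBS (adjusted p = 0.934), and 250000 ILC2s gave −0.40 ± 0.52 against added PBS (adjusted p = 0.823). Of the lesions given 250000 ILC2s, 2 lay below the added-PBS range of 28.6 to 35.2 CPM, 1 within it and 1 above. With 120000 ILC2s the differences were 0.90 ± 0.62 in deficient mice (adjusted p = 1.00) and 0.74 ± 0.56 in wild type (adjusted p = 0.999). In wild type all 3 lesions with ILC2s lay above the 4 without, a separation that 3.23% of all genes showed.

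Il1rn, the receptor antagonist (chromosome 2, 24336853 to 24351494, plus strand), passed in no comparison. Its median was 68.4 CPM (24.2 to 145) with deficient recipients and 66.6 CPM (29.1 to 114) with competent ones. The difference was −0.04 ± 0.36 between deficient and competent lesions (adjusted p = 0.966) and −0.23 ± 0.31 for recipient genotype (0.705). Over 41 lesions it correlated with Il1b at Pearson r = 0.60 (Spearman rho = 0.57). Per kilobase, the ratio of Il1rn to Il1b was 2.00 at the median of 19 lesions from competent recipients (0.899 to 6.92) and 0.760 at the median of 22 from deficient ones (0.497 to 1.72). The group medians of the ratio ran from 1.96 to 2.57 in the 5 competent-recipient groups and from 0.566 to 1.02 in the 6 others, so the medians did not overlap while single lesions did. Cre fragments in deficient recipients had the lowest ratio, at 0.497 to 0.687. This ratio was formed after the values were seen and has no test.

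**Figure D3:**
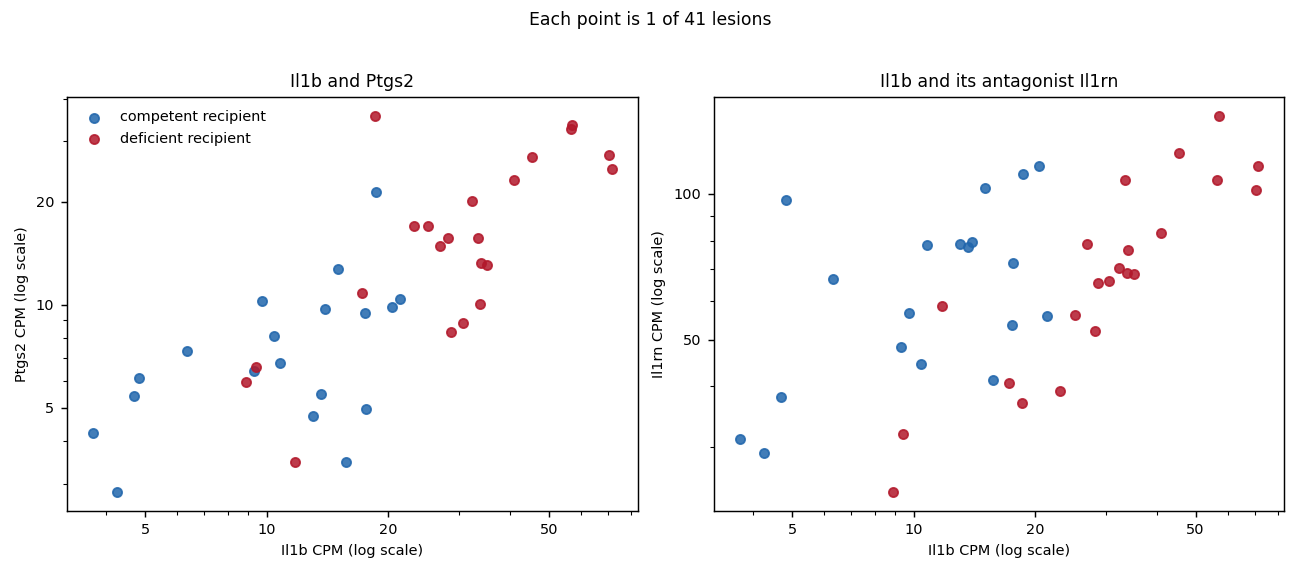
Il1b against Ptgs2 (left) and against Il1rn (right), CPM on log scales, 1 point per lesion, blue for competent and red for deficient recipients. Ptgs2 rises with Il1b over all 41 lesions (Pearson r = 0.78 on log2 CPM), while at a given Il1rn level most red points lie at higher Il1b.

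Il1a, the interleukin-1 ligand that epithelial cells hold ready and release on damage (chromosome 2, 129299610 to 129309972, minus strand), did not pass in any comparison. Its 3 highest lesions were Cre fragment in deficient recipient replicate 3 (20.8 CPM), IL-33-treated deficient replicate 4 (19.5) and deficient replicate 1 given 120000 ILC2s (17.3). The remaining 38 lesions lay between 2.41 and 12.6 CPM. In contrast to Il1b, its median was lower with deficient recipients (3.96 CPM) than with competent ones (6.08), and only those 3 lesions exceeded the competent range. Il1a was 1.20 ± 0.52 higher with IL-33 than with PBS in deficient lesions, which did not pass (unadjusted p = 0.0283, adjusted p = 0.654) and was −0.067 with the added-PBS lesions in place of those given IL-33 alone. Correlation of Il1a with Il1b over 41 lesions was near 0 (Pearson r = 0.12, Spearman rho = 0.01), both taken as descriptions. With the summed neutrophil genes it was r = 0.35 and rho = 0.21, and r = 0.13 without the 2 lesions farthest in that sum. Other sums gave larger values. For endometrial epithelium genes r was 0.48 (rho = 0.35, and r = 0.44 without the 2 lesions farthest in the sum). For mesothelium genes r was 0.48 (0.46, and 0.37), and for endothelium genes −0.49 (−0.41, and −0.36).

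Tnf (chromosome 17, 35199381 to 35202007, minus strand) had the smallest ratio of highest to lowest level among the 10 genes (4.62), with a top of 20.8 CPM. Its median was 9.83 CPM with deficient and 9.51 CPM with competent recipients. Deficient against competent lesions gave −0.10 ± 0.31 (adjusted p = 0.876) and recipient genotype −0.27 ± 0.27 (0.571). The largest difference was between control genotypes, with Cre lesions 0.92 ± 0.38 above floxed lesions (adjusted p = 0.259).

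Among the gp130 cytokines, Lif encodes leukaemia inhibitory factor (chromosome 11, 4257557 to 4272514, plus strand). Under IL-33 it was 2.70, 3.05, 2.73 and 1.33 CPM in wild type, 2.53, 6.03, 3.00 and 3.18 in floxed controls and 3.30, 5.66, 3.61 and 3.29 in Cre controls. The deficient lesions had 9.10, 5.12, 4.32 and 29.5 CPM. Of these, 2 lay above all 12 competent lesions and the other 2 within their range. Lif was 3.64-fold higher in deficient lesions (1.87 ± 0.36, edgeR adjusted p = 0.00113). Without deficient replicate 4, at 29.5 CPM, the difference was 0.93 (adjusted p = 0.136), and against Cre controls alone it was 1.60 ± 0.49 (adjusted p = 0.0559). Without that library none of the 10 genes passed: Il1b was then at 1.04 (adjusted p = 0.206) and Ptgs2 at 1.06 (0.153).

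By recipient, Lif was 1.17 ± 0.34 higher in deficient recipients (adjusted p = 0.0234). Cre fragments in deficient recipients had 2.73, 3.48, 13.8 and 5.70 CPM, and deficient fragments in Cre recipients 1.83, 4.29, 5.05 and 4.25. Of the 8 lesions from deficient recipients 4 lay above all 8 from Cre recipients, led by the untransferred replicate 4 (29.5 CPM) and Cre fragment replicate 3 (13.8). Leaving out the former gave 0.70 (adjusted p = 0.141) and leaving out the latter 0.83 (0.0892). In a fit of the 4 compared groups alone the adjusted p was 0.109.

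Lif was lowest with added PBS, at 2.94, 1.39, 2.72 and 2.10 CPM, below all 4 deficient lesions given IL-33 alone. The difference was −2.39 ± 0.50 and did not pass by edgeR (adjusted p = 0.0538), while DESeq2 gave an adjusted p of 0.000354, and it passed by edgeR without deficient replicate 2 or 3 (0.0301 and 0.0148) or without the liver libraries (0.0258). In that comparison 10.1% of all genes had groups that did not overlap. Without IL-33-treated deficient replicate 4 it was −1.45 (adjusted p = 0.414). All 4 lesions given 250000 ILC2s (4.56, 3.29, 5.21 and 6.24 CPM) lay above the added-PBS group, a separation that 4.65% of all genes showed (1.08 ± 0.48, adjusted p = 0.570). Against the mean of both IL-33-treated deficient groups the difference was −0.12. With PBS alone Lif was 6.37, 4.90, 3.44 and 4.36 CPM, and with 120000 ILC2s in deficient mice 16.0 and 8.22 CPM. Deficient lesions given IL-33 were 1.33 ± 0.48 above those given PBS, which did not pass (unadjusted p = 0.00937, adjusted p = 0.620). With the added-PBS lesions in place of those given IL-33 alone the sign turned (−1.06, adjusted p = 0.621). In wild-type lesions given 120000 ILC2s it was 4.36, 3.02 and 2.59 CPM.

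The 3 lesions highest in Lif were also the 3 highest in Il1a, and they were high in epithelial and neutrophil genes. Summed CPM of 8 endometrial epithelium genes (Epcam, keratins, claudins and others) was 1215 in deficient replicate 4, 813 in deficient replicate 1 given 120000 ILC2s and 727 in Cre fragment replicate 3. The added-PBS lesions, lowest in Lif, had 12.6 to 74.3. The epithelial sum was 162 to 1215 in the deficient lesions and 22.7 to 695 in the 12 competent ones. In that comparison 1 of the 8 genes passed, as higher, near the 11% of all genes that passed (6.24% were higher). Over 41 lesions Lif correlated with the epithelial sum at Pearson r = 0.66 (Spearman rho = 0.60, and 0.55 after group means were removed) and with 10 neutrophil genes at r = 0.72 (rho = 0.67, and 0.54). The part of epithelial or neutrophil content in the Lif differences was not tested.

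**Figure D4:**
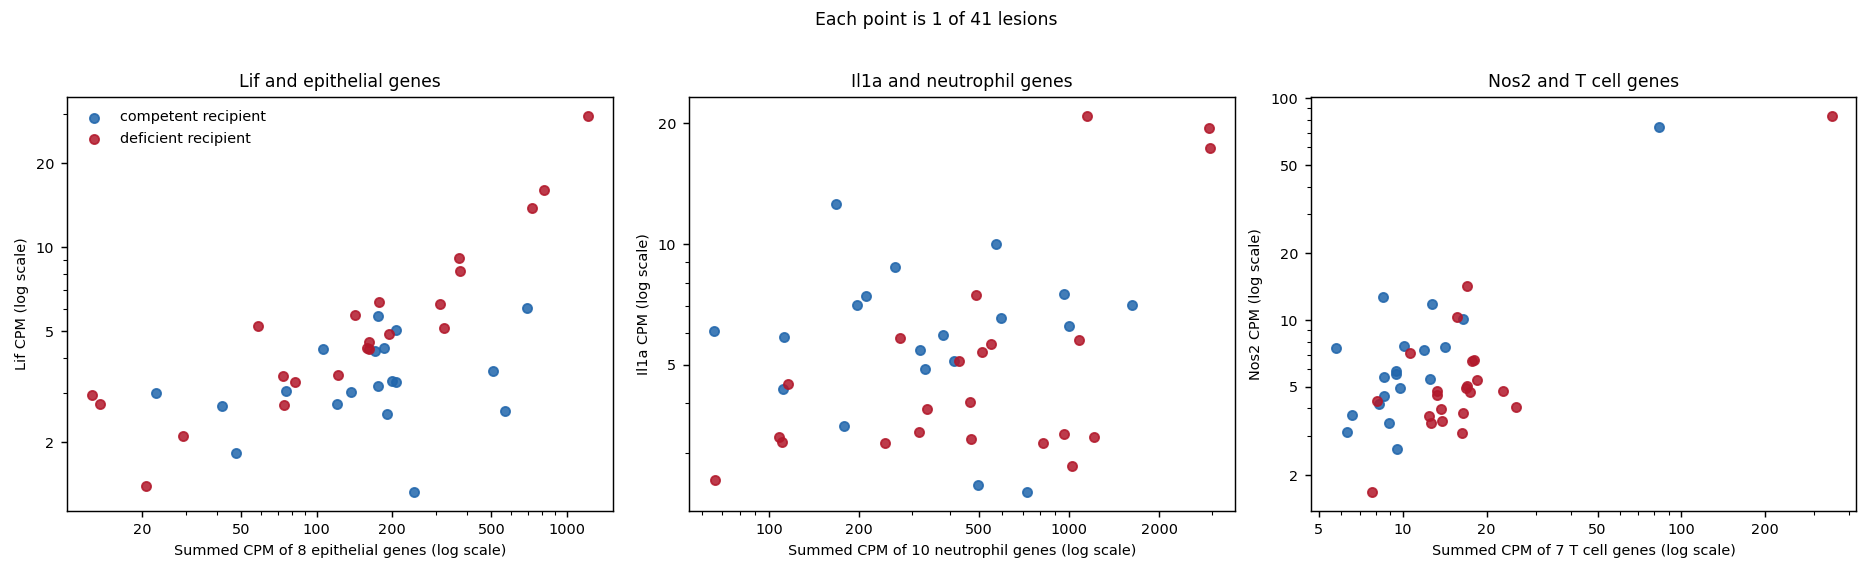
Lif against summed epithelial genes, Il1a against summed neutrophil genes and Nos2 against summed T cell genes (CPM, log scales), 1 point per lesion, blue for competent and red for deficient recipients. Lif rises with the epithelial sum, Il1a shows a weak relation to the neutrophil sum (Pearson r = 0.35), and the 2 lesions at 74.5 and 83.0 CPM of Nos2 stand alone in T cell genes.

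Il6, the best known gp130 cytokine (chromosome 5, 30013114 to 30019981, plus strand), was low, with 0.251 to 5.02 CPM and as few as 9 counts. Its highest group mean was that of deficient fragments in Cre recipients (2.61 ± 0.937 CPM, SD, n = 4) and its lowest that of floxed controls (0.512 ± 0.349, n = 4). The difference was 0.56 ± 0.49 between deficient and competent lesions (adjusted p = 0.509) and −0.66 ± 0.43 for recipient genotype (0.357). The highest lesion, PBS-treated deficient replicate 3 at 5.02 CPM, was also the highest in Il1rn (145 CPM). Across the 11 groups Il6 passed by DESeq2 (adjusted p = 0.0145) but not by edgeR, and by edgeR it passed without PBS-treated replicate 2 (0.0340) or without replicate 4 given 250000 ILC2s (0.0264). Both deficient lesions given 120000 ILC2s (0.530 and 0.540 CPM) lay below the 4 without ILC2s (0.582 to 1.93 CPM), at −1.19 ± 0.80 (adjusted p = 1.00).

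Osm, oncostatin M of neutrophils and macrophages (chromosome 11, 4236420 to 4241026, plus strand), varied between genotypes of controls. Cre controls had 4.92, 5.88, 3.63 and 3.69 CPM and floxed controls 1.50, 1.90, 2.86 and 1.54, without overlap. The difference was 1.22 ± 0.34 and did not pass by edgeR (adjusted p = 0.139), while DESeq2 gave an adjusted p of 0.0338. In that comparison 9.52% of all genes had groups that did not overlap. Deficient lesions given IL-33 had 2.79, 1.01, 2.64 and 2.17 CPM, and the difference from the competent genotypes was −0.42 ± 0.28 (adjusted p = 0.378). Cre fragments in deficient recipients had the highest mean (5.56 ± 1.85 CPM, SD, n = 4) and floxed controls the lowest (1.95 ± 0.632, n = 4). Both deficient lesions given 120000 ILC2s (3.20 and 5.45 CPM) lay above the 4 without, at 1.00 ± 0.40 (unadjusted p = 0.0172, adjusted p = 1.00). Groups that did not overlap, as for Osm and Il6 here, were seen for 6.36% of all genes in that comparison. By fragment genotype Osm was at −0.66 ± 0.24 (unadjusted p = 0.00884, adjusted p = 1.00).

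Il11 (chromosome 7, 4772373 to 4782859, minus strand) was the least abundant member, at 0.164 to 0.991 CPM and 7 to 45 counts. It passed in no comparison. At this depth its differences, 0.26 ± 0.30 for deficient against competent lesions (adjusted p = 0.654) and −0.38 ± 0.27 for recipient genotype (0.397), were not distinguishable from the spread between lesions. The 3 wild-type lesions given 120000 ILC2s (0.471 to 0.991 CPM) lay above the 4 without (0.237 to 0.452). The difference was 0.82 ± 0.41 (adjusted p = 0.999), and 3.23% of all genes showed such a separation.

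Ptgs2 (chromosome 1, 150100031 to 150108227, plus strand) encodes the inducible cyclooxygenase. Under IL-33 it was 6.10, 6.77, 8.11 and 6.40 CPM in wild type, 2.84, 4.22, 4.94 and 5.42 in floxed controls and 9.84, 4.74, 10.4 and 7.34 in Cre controls. The deficient lesions had 14.9, 6.59, 17.0 and 20.2 CPM, 3 of them above all 12 competent lesions. Ptgs2 was 2.36-fold higher (1.24 ± 0.37, edgeR adjusted p = 0.0269). Against Cre controls alone the difference was 0.86 ± 0.48 (adjusted p = 0.332), and it did not pass without deficient replicate 1, 3 or 4 (adjusted p = 0.0569, 0.0654 and 0.153).

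By recipient the difference in Ptgs2 was 0.95 ± 0.34 and did not pass (adjusted p = 0.0659). Cre fragments in deficient recipients had 27.3, 25.0, 35.5 and 17.0 CPM, and deficient fragments in Cre recipients 9.48, 21.4, 9.69 and 10.2. All 4 of the former lay above 3 of the latter, the exception being replicate 2 at 21.4 CPM. Without that library the difference was 1.16 (adjusted p = 0.0382). It passed as well without deficient replicate 2 (0.0412), without the liver libraries (0.0360), in a fit of the 4 groups alone (0.0330) and by DESeq2 (0.0308). By fragment genotype it did not pass (−0.09 ± 0.34, adjusted p = 1.00).

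In the other groups Ptgs2 was 15.7, 10.8, 33.5 and 23.1 CPM with PBS alone, and 13.1, 10.1, 8.34 and 13.3 with added PBS. After 250000 ILC2s it was 15.7, 27.0, 3.47 and 5.96 CPM, with the same 2 lesions low as for Il1b. It was 32.6 and 8.86 CPM in deficient mice and 5.48, 12.7 and 3.48 CPM in wild type given 120000 ILC2s. Over all groups the median was 15.7 CPM with deficient and 6.77 CPM with competent recipients, and 7 of 22 lesions exceeded the highest competent one. In the comparison of all groups by recipient added after the values were seen, the difference was 1.20 ± 0.22 (edgeR adjusted p = 0.00013). IL-33 against PBS gave −0.50 ± 0.48 (adjusted p = 0.942) and 250000 ILC2s 0.22 ± 0.48 (adjusted p = 0.906).

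Il1b and Ptgs2 varied together from lesion to lesion (Pearson r = 0.78 and Spearman rho = 0.79 over 41 lesions, 0.61 after group means were removed, 0.74 without the 2 lesions farthest in Il1b). The points share library depth and tissue content, and among the 45 pairs of members this was the highest r. Summed macrophage and monocyte genes correlated with Il1b at r = 0.72 and with Ptgs2 at r = 0.73, and their part was not tested.

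Nos2, inducible nitric oxide synthase (chromosome 11, 78920787 to 78960254, plus strand), was set apart by 2 lesions. Deficient fragments in Cre recipients had 74.5, 11.8, 7.57 and 12.7 CPM, and Cre fragments in deficient recipients 6.53, 6.64, 83.0 and 3.83. IL-33-treated deficient lesions had 3.70, 1.69, 4.62 and 4.80 CPM and Cre controls 7.37, 7.68, 5.72 and 4.17. Outside replicate 1 of the first group and replicate 3 of the second, no lesion of the series exceeded 14.3 CPM. The interaction of recipient and fragment genotype, which here sets both transferred groups against both others, was −4.85 ± 1.01 (edgeR adjusted p = 0.0331).

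Both lesions bore on the Nos2 call. Without Cre fragment replicate 3 it was −2.70 (adjusted p = 0.208), without deficient fragment replicate 1 −3.53 (0.224), and without both −1.39 ± 0.58 (0.376). It did not pass either with the replicate block (−4.37, adjusted p = 0.0821), without the liver libraries (0.180) or in a fit of the 4 groups alone (0.232). Leaving out any 1 Cre control, or deficient replicate 1, 2 or 4, kept the value between −4.98 and −4.59 and also ended the call (adjusted p = 0.0699 to 0.0898), so that 7 of 16 such refits passed. The same 2 lesions were the highest in 7 T cell genes, a list drawn up after the values were seen. Their summed CPM was 346 and 82.9, against 5.73 to 25.4 in the other 39 lesions, and Cxcl9, an interferon-γ-induced chemokine singled out after its values were seen, stood at 347 and 66.3 CPM. Whether T cell content accounts for Nos2 was not tested. By recipient genotype Nos2 was at −0.42 ± 0.48 (adjusted p = 0.635) with all lesions. Leaving out Cre fragment replicate 3 gave −1.47 (0.0121), leaving out deficient fragment replicate 1 gave 0.24, the opposite direction (0.786), and leaving out both gave −0.82 (0.0681). In the remaining groups Nos2 was 3.43 to 4.79 CPM with PBS alone, 4.04 to 5.36 with added PBS and 3.10 to 10.3 after 250000 ILC2s. It was 14.3 and 4.34 CPM in deficient mice given 120000 ILC2s, 3.45 to 7.46 in wild type given them, 3.14 to 5.54 in wild type and 2.63 to 10.1 in floxed controls.

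The genes around these members in their pathways were read from lists. Over all genes 11% passed in deficient against competent lesions and 11.3% by recipient, and the counts in the lists of this paragraph were near or below these shares. Of 11 receptor, inflammasome and adaptor genes of the interleukin-1 pathway, among them Il1r1, Nlrp3 and Casp1, none passed in deficient against competent lesions or by recipient (edgeR, list medians 0.16 and −0.00). Nlrp3, the sensor that activates interleukin-1β processing, was at 0.70 ± 0.26 (adjusted p = 0.0737) and 0.44 ± 0.23 (0.226). Of 11 gp130 receptor and signalling genes 1 passed, the interleukin-11 receptor chain Il11ra1, which fell by recipient (−0.43 ± 0.13, adjusted p = 0.0356). In deficient against competent lesions it was at −0.43 ± 0.16 and did not pass (adjusted p = 0.0744). Of 9 measured TNF and NF-kB genes, the NF-kB inhibitor Nfkbia rose in deficient lesions (0.48 ± 0.15, adjusted p = 0.0401) and the NF-kB subunit Nfkb1 fell by recipient (−0.30 ± 0.09, 0.0375). Neither passed in the other comparison, with Nfkbia at 0.19 ± 0.14 by recipient (adjusted p = 0.418) and Nfkb1 at −0.15 ± 0.11 in deficient lesions (0.436).

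Several other prostanoid genes were lower in deficient recipients. Of 17 measured prostanoid genes (enzymes, receptors and the transporter Slco2a1), 5 fell in deficient recipients and none rose, where 6.29% of all genes fell. The list median was −0.32 against 0.01 over all genes. The constitutive cyclooxygenase Ptgs1 fell (−1.13 ± 0.20, adjusted p = 0.000408). It averaged 87.9 ± 25.6 CPM in Cre controls and 113 ± 50.2 in deficient fragments in Cre recipients, against 46.5 ± 11.1 in deficient lesions and 44.1 ± 4.20 in Cre fragments in deficient recipients (SD, n = 4 each). The prostaglandin E2 receptor Ptger2 fell by 1.07 ± 0.17 (adjusted p = 0.000123) and the prostacyclin receptor Ptgir by 1.17 ± 0.22 (0.000776). Thromboxane synthase Tbxas1 fell by 0.77 ± 0.19 (adjusted p = 0.00607), and the prostacyclin synthase Ptgis, named after its values were seen, by 0.63 ± 0.20 (0.0408). In IL-33-treated deficient against competent lesions, where 4.72% of all genes fell, Ptger2 (−0.76 ± 0.20, adjusted p = 0.0146) and Ptgir (−0.96 ± 0.27, 0.0178) fell and the prostaglandin E synthase Ptges3 rose (0.45 ± 0.10, 0.00547). Ptgs1 was at −0.51 ± 0.24 (adjusted p = 0.160) there.

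Of 8 nitric oxide and arginine genes, 2 fell by recipient, the arginine transporter Slc7a2 (−2.11 ± 0.30, adjusted p = 2.33e-05) and arginase Arg1 (−1.98 ± 0.48, 0.00654), while the other 6 did not pass. Over all genes 6.29% fell by recipient and 4.72% fell in deficient against competent lesions. In deficient against competent lesions Slc7a2 fell too (−1.73 ± 0.37, adjusted p = 0.00272), and Arg1 was at −1.35 ± 0.58 (0.132). Of 9 inducible chemokine and acute-phase genes, Ccl3 rose in deficient lesions (1.30 ± 0.33, adjusted p = 0.00919) and by recipient (1.10 ± 0.30, 0.0168), and Ccl4 in the former (1.09 ± 0.31, 0.0195). Over all genes 6.24% rose in the former and 5.02% by recipient. Ccl3 and Ccl4 encode macrophage inflammatory proteins. The neutrophil chemokines Cxcl1 and Cxcl2 were at 0.24 ± 0.63 (adjusted p = 0.859) and 0.87 ± 0.42 (0.190) in deficient lesions. Cxcl3 and Cxcl5 were at 0.05 ± 0.47 (0.967) and 0.76 ± 0.34 (0.145) there.

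Genes whose log2 CPM over the 41 lesions was most like that of each member differed between the members. For Il1b they were Trem1, a receptor that amplifies myeloid inflammation (Pearson r = 0.92, and 0.90 after group means were removed), Mirt1 (0.90) and Clec4n (0.90). For Ptgs2 they were Ccl3 (0.87), the matrix protein gene Thbs1 (0.86) and the bacterial lipoprotein receptor Tlr2 (0.86). For Lif they were the integrin Itga6 (0.86), Rhbdl2 (0.86) and Trim27 (0.85). For Il1rn they were A530064D06Rik (0.90), Clec5a (0.90) and Cd300ld (0.89), for Tnf Pilra (0.84), Fgr (0.83) and Hivep3 (0.83), and for Osm Cass4 (0.85), Fmnl1 (0.83) and Ccr1 (0.83). Il6 was nearest to Il33 itself (0.82), Smim3 (0.82) and Serpinb2 (0.81), and Il1a to Zc3hav1 (0.87), M6pr (0.86) and Rab11fip1 (0.85). Nos2 was nearest to Spn, the T cell and leukocyte sialoglycoprotein (0.87), Tnfrsf14 (0.86) and Akna (0.86), and these fell to 0.67, 0.62 and 0.72 without the 2 lesions farthest in Nos2. These are descriptions over lesions that share group, depth and tissue content. Il11 was left out because its mean was under 1 CPM.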

How the data were processed

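The authors deposited raw counts for 21249 genes in 41 libraries. GRCm38 and the tools Trimmomatic, STAR, HTSeq, edgeR and limma are named per the submitters' processing notes, and annotation and strand setting are not given in the sources used here, so antisense or overlapping transcripts cannot be told apart. RNA came from snap-frozen lesions, per the labels. No gene total was under 411 counts, so rarer genes were left out by an unstated rule.

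One edgeR 4.0.16 quasi-likelihood model of 11 group means (TMM scaling, R 4.3.3) was fitted to all libraries, with Benjamini-Hochberg adjustment over all 21249 genes at 0.05. The low-count filter removed no gene. Standard errors are the log2 fold change over the square root of F. CPM are TMM-scaled, correlations used log2 CPM with prior count 2, and values per kilobase used GENCODE M21 exon lengths. DESeq2 1.42.0 was an alternative. The members and gene lists were chosen with earlier results of these data known. All members are named, with list genes past the test (up to 4 per list and comparison) and the 3 genes most like each member. Named outside this rule were Ptgis, Cxcl9 and, without passing, Nlrp3, Cxcl1, Cxcl2, Cxcl3 and Cxcl5. Ptgds and Lta were not analysed here. In data simulated for deficient against competent lesions over 21249 genes, 17% of changes of 1 and 85% of changes of 2 on the log2 scale were recovered. The smaller comparisons recovered less. For IL-33 against PBS the shares were 3% and 59%, and for 250000 ILC2s against added PBS 8% and 49%. For 120000 ILC2s in deficient mice they were 1% and 21%, so the absence of a call there says little. Replicate numbers did not pair samples. Nothing in the labels says that replicates were separate animals, and the spread behind the p-values may then be technical. None of 58 pairs within a group agreed within sampling noise.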

Additional observations from a re-analysis of the deposited data

Results flagged for a closer look

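Dixon's rule (95%) was applied to 90 sets (10 genes in 9 groups of 4 lesions), of which chance marks about 1 in 20, and it marked 11. Il1a stood apart in 5 groups: Cre fragments in deficient recipients replicate 3 (20.8 CPM), IL-33-treated deficient replicate 4 (19.5), added PBS replicate 2 (4.47), PBS alone replicate 3 (5.81) and deficient fragments in Cre recipients replicate 2 (12.6), each the highest of its group. The last lesion also stood apart in Ptgs2 (21.4 CPM) and Tnf (17.5). Nos2 stood apart at 83.0 CPM in Cre fragment replicate 3 and at 74.5 CPM in deficient fragment replicate 1. Il1b did so in floxed control replicate 3 (17.6 CPM) and Lif in Cre control replicate 2 (5.66). The 11 lay in 8 libraries. The interaction term of recipient and fragment genotype for Nos2 (−4.85 on the log2 scale) passed the test and rests on the 2 lesions highest in Nos2. It sets both transferred groups against both untransferred ones, which have other runs of library names. Genotype, transfer and handling therefore cannot be told apart in it.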

How the results depend on the processing

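Of 130 results (10 genes in 13 comparisons), 67 kept their direction and their side of the threshold under every alternative run, 12 changed side and 52 changed sign under at least 1 alternative, with 1 result, Nos2 by recipient genotype, among both. No result called with all lesions changed sign, and no value of changed sign was past the threshold. The cause of the changes was not tested. Depth limits Il6 and Il11 most, at as few as 9 and 7 counts, and groups of 4 recover few small changes. The lone-library and T cell alternatives rest on fewer samples.

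With DESeq2 the genes called became 9, 3 and 8 (from 0) for 120000 ILC2s in deficient lesions, in wild type and for their difference, 14 (from 0) for 250000 ILC2s, 228 (from 70) for Cre against floxed controls, 18 (from 2) for IL-33 against PBS, 768 (from 3) for added PBS, 6852 (from 4536) for any difference, 13 (from 1) for fragment, 342 (from 88) for the interaction and 1207 (from 563) for wild type. Members called became 1 for Cre against floxed controls and 1 for added PBS. A minimum mean of 1 CPM gave 37 for Cre against floxed controls. Fits of only the compared groups gave 36 for Cre against floxed controls, 31 for wild type and 0 for IL-33 against PBS, added PBS, fragment and the interaction, with members at 0 for the interaction and 1 for recipient. Without liver libraries the counts were 0 for IL-33 against PBS and fragment, 163 for added PBS (members 1), 1 for the interaction (members 0) and 47 for wild type. Library totals alone gave 18 for added PBS, 2994 for any difference, 33 for the interaction, 62 for wild type and 1386 (from 2403) for recipient (members 1). IL-33 against PBS gave 5 with the added-PBS group in place and 4 with the mean of both deficient IL-33 groups. With Cre controls only, deficient against competent gave 813 (from 2329; members 0). Added after the data were seen, leaving out the 2 libraries highest in T cell genes gave 2 for fragment and 3 for the interaction (members 0), with 1 member for recipient, and all groups by recipient gave 6576.

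The replicate block gave 5 genes and 0 members for the interaction and ended no other member's call. Replicate numbers do not pair the samples (median r = −0.00 for 191 same-number pairs, 0.01 for 571 others).

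With 1 library left out in turn, genes called ranged from 0 to 1 (120000 ILC2s in deficient lesions), 0 to 2 (in wild type), 45 to 70 (Cre against floxed), 0 to 4 (IL-33 against PBS), 0 to 423 (added PBS; members 0 to 1), 3738 to 5554 (any difference; members 5 to 6), 698 to 2462 (deficient against competent; members 0 to 3), 0 to 7 (fragment), 3 to 264 (interaction; members 0 to 1), 1602 to 2446 (recipient; members 0 to 3) and 87 to 979 (wild type).

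Log2 differences that changed sign, none of them past the threshold, were as follows. With Cre controls only, Il11 was at −0.21 and Il6 at −0.29 for deficient against competent. With library totals alone Il1rn was at 0.061 and Tnf at 0.0031 there, and without liver libraries at 0.081 and 0.050. Without liver libraries IL-33 against PBS gave 0.0071 for Il11 and 0.15 for Nos2, and fragment gave 0.039 for Il1a and 0.10 for Ptgs2. With the added-PBS group in place, IL-33 against PBS gave −0.067 for Il1a, −1.06 for Lif, 0.28 for Nos2 and 0.0067 for Osm. With the mean of both deficient IL-33 groups it gave 0.10 for Nos2, and 250000 ILC2s gave −0.27 for Il1a and −0.12 for Lif. The replicate block gave 0.0012 for Il1a by fragment and −0.012 for Osm with 250000 ILC2s. Without the 2 libraries highest in T cell genes fragment gave 0.49 for Il1a, 0.094 for Nos2 and 0.071 for Ptgs2, and recipient −0.39 for Il1a. All groups by recipient gave −0.016 for Il1a, 0.16 for Il1rn, 0.10 for Il6, 0.085 for Osm and 0.11 for Tnf.

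With 1 library left out, differences that crossed 0 ranged, for deficient against competent, from −0.15 to 0.87 (Il1a), −0.20 to 0.18 (Il1rn) and −0.26 to 0.10 (Tnf). By recipient they ranged from −0.34 to 0.35 (Il1a) and −1.47 to 0.24 (Nos2), and by fragment from −0.44 to 0.44 (Il1a), −0.036 to 0.78 (Lif), −0.99 to 0.74 (Nos2) and −0.27 to 0.041 (Ptgs2). For IL-33 against PBS they ranged from −0.20 to 0.12 (Il11), −0.66 to 0.016 (Il1rn), −1.14 to 0.089 (Il6) and −0.24 to 0.14 (Nos2), and for 250000 ILC2s from −0.14 to 0.46 (Il1rn), −0.16 to 0.27 (Osm) and −0.42 to 0.54 (Ptgs2).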
